A study of Mus musculus with 12 samples.

Results

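The genes described here are 44 genes of the cell cycle and of DNA replication, chosen by a list of gene symbols for their known roles. The rule uses no measured value, but the genes were chosen with earlier results of these data known. All 44 had counts, among 18810 genes with a count in any library and 23329 listed, and all 44 passed the filter on low counts that left 13038 genes for testing. By role, 21 act in mitosis or mark dividing cells (Mki67, Top2a, Ccna2, Ccnb1, Ccnb2, Cdk1, Bub1, Bub1b, Aurka, Aurkb, Plk1, Birc5, Cdc20, Cenpe, Cenpf, Kif11, Kif20a, Kif23, Ttk, Tpx2 and Nusap1). Another 14 act in DNA replication (Ccne1, Ccne2, Cdc6, Cdt1, Mcm2 to Mcm7, Pcna, Rrm1, Rrm2 and Tyms). Of the rest, 3 are transcription factors of the cell cycle (E2f1, Foxm1 and Mybl2), 3 are inhibitors of cyclin-dependent kinases (Cdkn1a, Cdkn2a and Cdkn2b) and 3 are D cyclins (Ccnd1, Ccnd2 and Ccnd3).

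PolyA RNA was sequenced from primary stromal cells of the small intestine of C57BL6/J mice, taken from E14.5 embryos (embryonic stroma) or from adults (adult stroma). In both stages the epithelium was removed by chelation, the remaining wall was digested, and the cells were grown to confluence in medium with serum and Y27632, a kinase inhibitor, and used at passages 2 to 3. Cultures received LPS of E. coli O111:B4 at 10 µg/µl or PBS, and RNA was taken after 6 hours. Each of the 4 groups (embryonic with PBS, embryonic with LPS, adult with PBS, adult with LPS) had 3 libraries, and the cultures were independent, each embryonic culture being a pool of several embryos. The labels call the cells myofibroblasts, but no marker was used to select them. The 14 fibroblast and myofibroblast markers summed to between 24993 and 51019 CPM (a gene's counts relative to the library total, with TMM scaling) in all 12 libraries. The lowest sum was that of embryonic culture 2 with LPS. The 13 macrophage markers summed to 2694 CPM in embryonic culture 3 with PBS, against 221 and 446 in the other embryonic PBS libraries and 20 to 193 in the adult ones. The 6 endothelial markers summed to 1791 CPM in adult culture 2 with PBS, against 19.9 and 378 in the other adult PBS libraries and 8.37 to 31 in the embryonic ones. These cultures are therefore mixed stroma, and embryonic culture 3 and adult culture 2 stand apart in these markers. Libraries held 18850224 to 32672370 counts on genes.

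A cell that divides passes through a gap phase, copies its DNA, and separates its chromosomes in mitosis. D cyclins with Cdk4 and Cdk6, and then E cyclins with Cdk2, phosphorylate the retinoblastoma protein, which frees E2F factors to switch on genes of DNA replication. Later, Mybl2 and Foxm1 act with the MuvB complex on genes of mitosis. The inhibitors hold this back: Cdkn1a (p21) is a target of p53, and Cdkn2a (p16 and ARF) and Cdkn2b (p15) build up in cells that arrest or become senescent in culture. Fibroblasts slow down when they become confluent.

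The promoters of these genes carry letters that go with their roles. RefSeq promoters of build GRCm38.p6, each of 250 bases before and 50 after the transcript start, were found for 35 of the 44 genes; Ccna2, Aurkb, Kif20a, Tpx2, Ccne2, Mcm4, Foxm1, Ccnd1 and Ccnd2 had no entry. On either strand, TTTGAA, the core of the cell cycle homology element read by MuvB, was present in 12 of 17 mitosis genes and 1 of 12 replication genes, against 20.2% of all 27025 genes with a promoter. CCAAT was present in 15 of 17 mitosis genes and 8 of 12 replication genes, against 41.1% of all genes. Any of 4 E2F forms (TTTCCCGC, TTTCGCGC, TTTGCCGC or TTTGGCGC) was present in 1 of 17 mitosis genes and 6 of 12 replication genes, against 2.6% of all genes. In opposite directions, TTTCGCGC and TTTGGCGC can share 4 bases, as they do in Mcm5 and Mcm6, while TTTGAA and CCAAT cannot. These matches are a description of sequence, and binding was not measured.

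The bases just before the transcript start are shown for 5 mitosis genes, including both proliferation markers, with CCAAT and TTTGAA in capitals (ATTGG and TTCAAA on the other strand).
Cdk1 (chr10:69352913-69353032, minus strand): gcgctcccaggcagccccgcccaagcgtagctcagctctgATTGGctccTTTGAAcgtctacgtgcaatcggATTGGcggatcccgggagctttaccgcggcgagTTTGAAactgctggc
Cdc20 (chr4:118437344-118437463, minus strand): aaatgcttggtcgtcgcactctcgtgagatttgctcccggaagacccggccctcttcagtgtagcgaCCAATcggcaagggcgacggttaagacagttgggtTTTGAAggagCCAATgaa
Kif11 (chr19:37376262-37376381, plus strand): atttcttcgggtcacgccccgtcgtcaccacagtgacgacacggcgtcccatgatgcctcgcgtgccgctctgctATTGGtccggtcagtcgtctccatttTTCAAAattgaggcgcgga
Top2a (chr11:99024190-99024309, minus strand): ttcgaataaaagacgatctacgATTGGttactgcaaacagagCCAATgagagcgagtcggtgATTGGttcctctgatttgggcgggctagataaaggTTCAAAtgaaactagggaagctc
Mki67 (chr7:135716380-135716579, minus strand): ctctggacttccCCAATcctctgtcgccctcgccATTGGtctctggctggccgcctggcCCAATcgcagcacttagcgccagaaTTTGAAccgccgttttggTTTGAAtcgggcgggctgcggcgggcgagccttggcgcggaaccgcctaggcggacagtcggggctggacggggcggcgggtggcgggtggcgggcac
For 3 replication genes the E2F forms and CCAAT are in capitals (GCGGGAAA, GCGCGAAA and GCGCCAAA are E2F forms on the other strand).
Mcm6 (chr1:128359706-128359825, minus strand): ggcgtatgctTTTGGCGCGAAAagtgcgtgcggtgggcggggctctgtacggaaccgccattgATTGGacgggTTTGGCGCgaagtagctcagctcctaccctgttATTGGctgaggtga
Mcm5 (chr8:75109349-75109508, plus strand): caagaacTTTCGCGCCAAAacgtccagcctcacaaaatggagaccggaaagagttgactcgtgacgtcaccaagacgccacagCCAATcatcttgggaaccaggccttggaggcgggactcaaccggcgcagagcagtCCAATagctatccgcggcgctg
Cdc6 (chr11:98908001-98908150, plus strand): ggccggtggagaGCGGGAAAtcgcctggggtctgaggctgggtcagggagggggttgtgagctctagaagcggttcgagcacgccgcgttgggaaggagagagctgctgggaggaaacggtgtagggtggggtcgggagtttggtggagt
Counted from the start, a TTTGAA begins at position -15 in Cdk1 and -18 in Cdc20, and the same letters on the other strand begin at -19 in Kif11 and -23 in Top2a. In each of the 4 a CCAAT lies upstream of it. The E2F forms begin at -138 in Cdc6, at -153 and -149 in Mcm5, and at -110, -106 and -47 in Mcm6.

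Proliferation genes were expressed in both stages, and both markers varied more between cultures of a stage than between the stage means. Mki67, which encodes the Ki-67 antigen of cycling cells, stood at 34.1, 14.3 and 97.7 CPM in embryonic cultures 1, 2 and 3 with PBS. In adult cultures 1, 2 and 3 with PBS it stood at 19.7, 76.2 and 36.8 CPM. Embryonic culture 3 and adult culture 2 were the highest of their stages, embryonic culture 2 was the lowest of all, and the stages overlapped. Top2a, the topoisomerase that untangles replicated DNA, stood at 32.3, 13.4 and 88.6 CPM in the embryonic PBS libraries and at 24.8, 85.1 and 39.5 CPM in the adult ones, in the same order. The mean of Mki67 was 48.7 ± 43.6 CPM (SD, n = 3) in embryonic and 44.2 ± 28.9 CPM (SD, n = 3) in adult stroma with PBS. In bulk RNA, fewer dividing cells and less RNA per dividing cell cannot be told apart.

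With PBS, most of the set followed Mki67 from culture to culture. Leaving out Mki67 itself, the order of the 3 cultures was that of Mki67 in both stages for 30 of 43 genes, against 8.26% of all 13038 tested genes. These were 19 of the 20 other mitosis genes, 9 of the 14 replication genes and 2 of the 3 transcription factors. Taking each stage by itself with PBS, 34 of 43 genes had the Mki67 order in embryonic and 33 of 43 in adult stroma. The shares of all tested genes were 21.4% and 24%. Among the LPS libraries, 19 of 43 genes had the Mki67 order in embryonic and 32 of 43 in adult stroma. The shares of all tested genes were 19.5% and 25.2%. Those in embryonic stroma with LPS were 13 of the 20 other mitosis genes, 6 of the 14 replication genes and 0 of the 3 transcription factors. With PBS the mitosis gene with another order was Tpx2, a spindle assembly factor, and only in embryonic stroma. It stood at 24, 28.5 and 34.1 CPM in embryonic cultures 1 to 3 with PBS. In adult ones it stood at 29.5, 52 and 36.1 CPM, which is the Mki67 order. The mitosis genes summed to 248, 139 and 529 CPM in embryonic cultures 1 to 3 with PBS and to 195, 614 and 322 CPM in adult ones. The highest PBS culture exceeded the lowest by a median of 4.82-fold in the embryonic and 3.42-fold in the adult mitosis genes, whereas over all tested genes the median was 1.47-fold and 1.28-fold. Replication genes spread less, by a median of 2.29-fold and 1.71-fold. The part that macrophages or endothelial cells played in the high cultures was not tested.

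**Figure D1:**
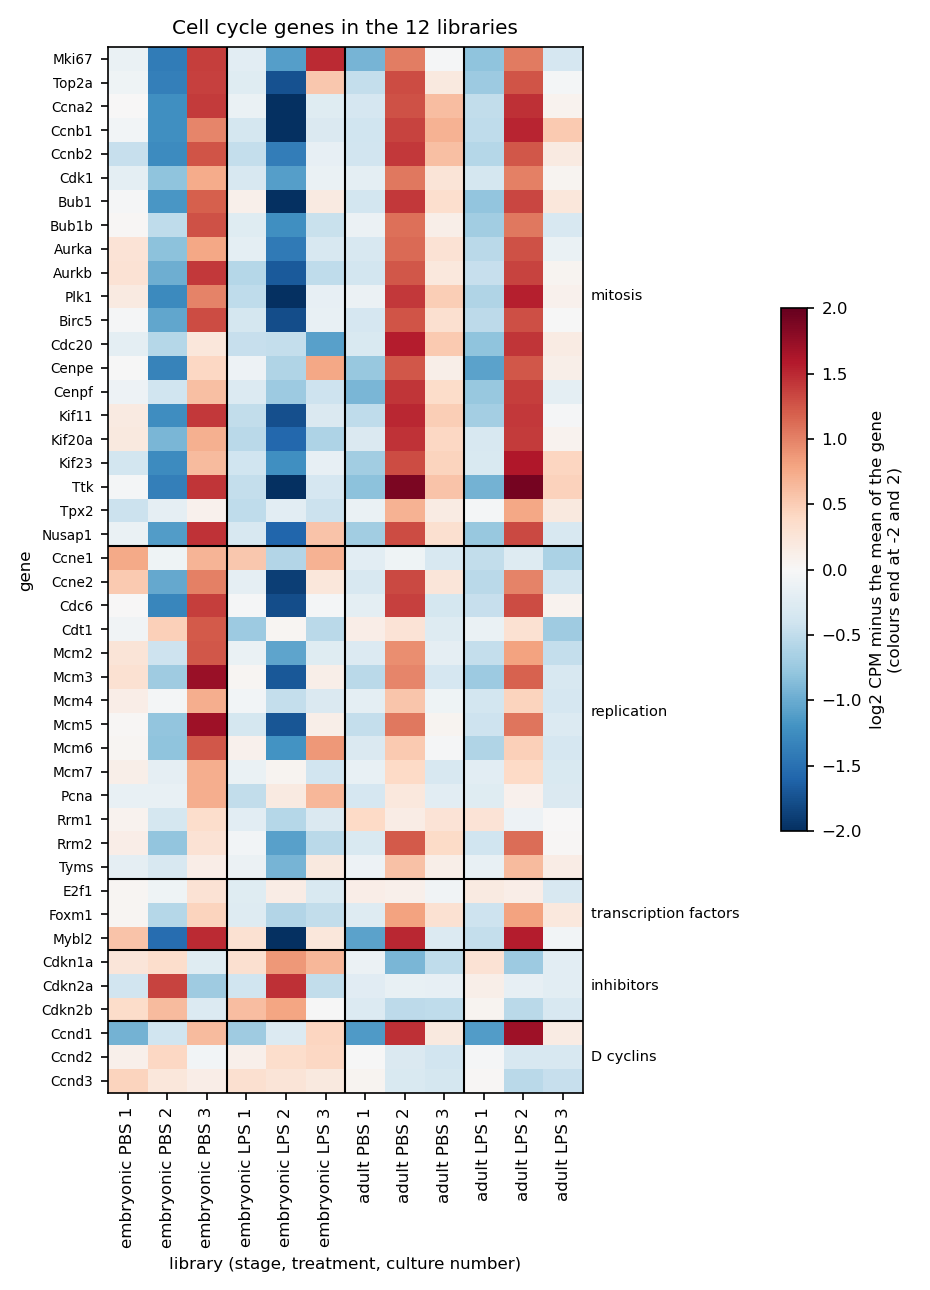
Heat map of the 44 genes (rows, by role) in the 12 libraries (columns, by stage, treatment and culture number), coloured by log2 CPM minus the mean of the gene. Embryonic culture 3 with PBS and adult culture 2 with either treatment are red across most mitosis genes, embryonic culture 2 is blue, and Cdkn1a and Cdkn2b run the other way with PBS.

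Among the 3 inhibitors of the set, Cdkn1a and Cdkn2b ran against the proliferation genes with PBS. Cdkn1a, the p21 inhibitor, stood at 1247, 1351 and 892 CPM in embryonic cultures 1 to 3 with PBS and at 968, 562 and 740.4 CPM in adult ones. In both stages it was highest where Mki67 was lowest and lowest where Mki67 was highest. With LPS it kept this reversed order in adult but not in embryonic stroma, whereas Cdkn2b kept it in both. Cdkn2b, the p15 inhibitor, had the same reversed order, at 253, 306 and 162 CPM in embryonic and 163, 137 and 138 CPM in adult cultures with PBS, although adult cultures 2 and 3 were nearly level. Reversed order in both stages was thus seen for 2 of 3 inhibitors, against 8.54% of all tested genes and 0 of the mitosis and replication genes. Cdkn2a was 326 CPM in embryonic culture 2, the culture with the least Mki67, against 97.8 and 78 CPM in embryonic cultures 1 and 3. In adult stroma with PBS Cdkn2a was close to even, at 109, 116 and 114 CPM, and not in reversed order. Outside the set, the inhibitors Cdkn1b and Cdkn2d had the same order as Mki67 with PBS in both stages. Cdkn1b stood at 20.3, 7.07 and 27.9 CPM in embryonic cultures 1 to 3 and at 19.4, 32 and 22.7 CPM in adult ones. Cdkn1c and Cdkn2c had neither the Mki67 order nor its reverse, so the reversed order was not shared by all inhibitors.

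Per kilobase of exon, the inhibitors and D cyclins of the set lay above all 21 mitosis genes within each PBS library. In the PBS libraries Cdkn1a reached 207 to 497 CPM per kilobase and Ccnd2 150 to 258, whereas the 21 mitosis genes lay between 0.294 (Ttk) and 18.1 (Cdc20). The lowest inhibitor value was 66.6 CPM per kilobase, for Cdkn2a, and the lowest D cyclin value was 14.9, for Ccnd1 in adult culture 1. The highest mitosis gene of that library was Tpx2, at 6.76. Among replication genes, Rrm1, the large subunit of ribonucleotide reductase, was highest at 42.6 to 71.3 CPM per kilobase, and Cdc6, which loads the replicative helicase, had the lowest mean. Rrm1 was the 1 replication gene that ran in reverse of the Mki67 order in adult stroma, at 285, 239 and 262 CPM in cultures 1 to 3 with PBS.

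The D cyclins had no common pattern. Ccnd1 stood at 63.3, 92.3 and 189 CPM in embryonic cultures 1 to 3 with PBS and at 55.7, 335 and 139 CPM in adult ones, so that it was highest in the cultures with the most Mki67. Ccnd2 stood at 1402, 1730.2 and 1257 CPM in embryonic and at 1301, 1067 and 1004 CPM in adult cultures with PBS, and the stages overlapped. Ccnd3 stood at 214, 184 and 172 CPM in embryonic and at 164, 127 and 124 CPM in adult cultures with PBS, and was the 1 gene of 44 whose stages did not overlap, against 24.3% of all tested genes.

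Whether embryonic and adult stroma differ in proliferation was tested in the PBS libraries with edgeR's quasi-likelihood test and Benjamini-Hochberg adjustment over all tested genes, calling an adjusted p under 0.05. None of the 44 genes was called, against 4.08% of all tested genes, and DESeq2 also called 0, against 11.9%. With edgeR, 4 had an unadjusted p under 0.05 (against 19.8% of all tested genes), all higher in embryonic stroma (Ccne1, Cdkn2b, Ccnd2 and Ccnd3). Mki67 differed by 0.14 on the log2 scale (embryonic minus adult, standard error 0.85, adjusted p = 0.955). The median log2 difference was -0.41 for mitosis genes, 0.26 for replication genes and 0.62 for inhibitors, beside 0.02 for all tested genes. The largest support was for Ccnd3, at 0.46 (standard error 0.17, adjusted p = 0.157). These p-values rest on the spread within all 4 groups of 3 libraries, taken from 1 fit. That fit treats the LPS and PBS libraries of a culture as independent, so it counts more replicates than there were cultures. For Mki67 a log2 difference of 1 lies within 2 standard errors, so a difference of that size was not detectable.

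With LPS, again none of the 44 genes was called between the stages, against 5.31% of all tested genes, and 8 had an unadjusted p under 0.05, against 22%. Cdkn1a, Ccnd2 and Ccnd3 were higher in every embryonic LPS library than in any adult one, and Aurkb, Kif20a, Tpx2 and Rrm1 were lower. These are 7 of 44 genes without overlap, or 15.9%, against 25.1% of all tested genes. Cdkn1a stood at 1313, 1922 and 1668 CPM in embryonic cultures 1 to 3 with LPS and at 1283, 641 and 913 CPM in adult ones, a log2 difference of 0.79 (standard error 0.29, adjusted p = 0.141). Ccnd3 stood at 197, 189 and 181 CPM with LPS in embryonic and at 160.1, 108 and 115 CPM in adult cultures, a log2 difference of 0.57 (standard error 0.17, adjusted p = 0.0789). With DESeq2, Ccnd2 and Ccnd3 were called higher in embryonic stroma with LPS, or 2 of 44 genes against 13.1% of all tested genes.

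The question of what 6 hours of LPS did to the cell cycle genes was then addressed within each stage. Without regard to culture, none of the 44 genes was called in embryonic stroma, against 2.75% of all tested genes called in either direction and 0.0767% called lower, and DESeq2 also called 0. The 1 gene with an unadjusted p under 0.05, against 10.8% of all tested genes, was Cdt1, a licensing factor of DNA replication, at -1.01 (standard error 0.38, adjusted p = 0.288). The estimates were nevertheless mostly negative: 38 of 44 lay below 0, with a median log2 fold change of -0.76 for mitosis genes and -0.51 for replication genes, beside 0 for all tested genes.

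Libraries of the same number and stage deviated together, and with the culture as a block the spread between cultures is removed from the comparison. In that fit 14 of 44 genes fell in embryonic stroma and 0 rose, against 3.11% of all tested genes called lower and 9.43% called higher. Of the mitosis genes 8 of 21 fell: the kinases Aurka, Aurkb, Plk1 and Ttk, cyclin B1 (Ccnb1), survivin (Birc5), and the motors Kif11 and Kif20a. Of the replication genes 6 of 14 fell: cyclin E2 (Ccne2), Cdt1, the helicase subunits Mcm2, Mcm3 and Mcm5, and Rrm1. Falls ranged from -0.38 for Rrm1 to -1.21 for Aurkb on the log2 scale. The number of genes called in either direction depended on the cultures, at 18, 11 and 4 without embryonic culture 1, 2 and 3. In those fits 10.5%, 15% and 7.98% of all genes tested were called in either direction. Without culture 1, 17 genes fell and 1 rose (Cdkn1a), and in the other fits all called genes fell. The number was 1 (Kif20a) when the embryonic libraries were fitted alone, against 5.63% of all genes. It was 0 when a log2 fold change of at least 2 was also required, a size that none of the 14 falls reached. Without culture 3, which had the most macrophage markers, the 4 genes were Aurkb, Kif20a, Ccne2 and Mcm2. These fits with a culture left out, with a stage alone or with a fold threshold, were chosen after seeing the data.

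Kif20a, a motor of cytokinesis, stood at 16.9, 7.78 and 24.1 CPM in embryonic cultures 1 to 3 with PBS and at 10.1, 4.94 and 9.59 CPM with LPS. It was lower with LPS in all 3 cultures, although the groups overlapped, and its log2 fold change with the block was -0.92 (standard error 0.15, adjusted p = 0.006). Aurkb, the kinase of the chromosomal passenger complex, stood at 4.46, 1.86 and 9.69 CPM with PBS and at 2.45, 1.14 and 2.56 CPM with LPS, a fitted log2 change of -1.21 (standard error 0.25, adjusted p = 0.0174). The fall was largest in culture 3, which came down to nearly the level of culture 1.

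Ccne2 was the most even of the falls. It stood at 6.39, 2.2 and 8.94 CPM with PBS and at 3.96, 1.21 and 5.24 CPM with LPS, with changes of -0.68, -0.83 and -0.76 on the log2 scale in cultures 1, 2 and 3 and a fitted change of -0.76 (standard error 0.15, adjusted p = 0.0134). Its partner cyclin Ccne1 stood at 29.5, 16.3 and 27.7 CPM with PBS and at 25.2, 11.6 and 28.2 CPM with LPS, and was not called. Mcm3, a subunit of the replicative helicase, stood at 14.8, 7.32 and 39.7 CPM with PBS and at 12.3, 3.73 and 13 CPM with LPS, a fitted log2 change of -0.95 (standard error 0.23, adjusted p = 0.034). Its fall was larger in cultures 2 and 3 than in culture 1.

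**Figure D2:**
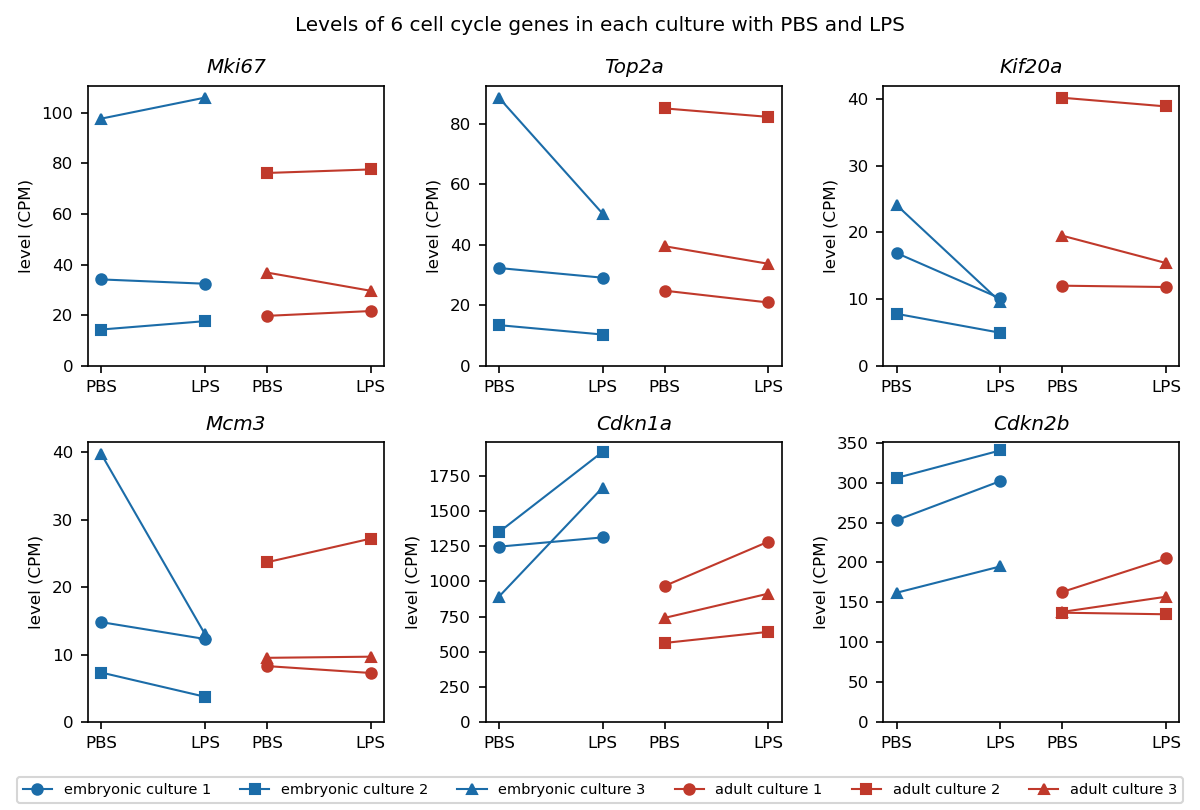
Levels (CPM, axis from 0) of Mki67, Top2a, Kif20a, Mcm3, Cdkn1a and Cdkn2b in each culture with PBS and LPS, joined by lines (blue, embryonic; red, adult). Kif20a falls in all 3 embryonic cultures, Mki67 does not, Top2a and Mcm3 fall most in embryonic culture 3, and Cdkn1a is higher with LPS in all 6 cultures.

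The fall did not extend to both proliferation markers. Mki67 stood at 32.4, 17.6 and 106 CPM in embryonic cultures 1 to 3 with LPS, close to its PBS levels, with a fitted log2 change of 0.11 (standard error 0.11, adjusted p = 0.589) in the block fit. Top2a stood at 29.1, 10.3 and 50.3 CPM with LPS and was lower in all 3 cultures, at -0.46 (standard error 0.12, adjusted p = 0.0511), just short of the threshold. The ratio of Mki67 to Top2a was 1.06, 1.06 and 1.1 in embryonic cultures 1 to 3 with PBS and 1.12, 1.71 and 2.1 with LPS. Cenpe, a kinetochore motor, was the other mitosis gene with a positive estimate, at 15.5, 6.19 and 20.8 CPM with PBS and 14.6, 10.3 and 26.8 CPM with LPS.

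Within cultures, 27 of 44 genes were lower with LPS in all 3 embryonic cultures, against 19.1% of all tested genes. These included 16 of 21 mitosis genes and 9 of 14 replication genes. The median change of the 44 genes was -0.21 in culture 1, -0.41 in culture 2 and -0.97 in culture 3. Culture 3, with the most Mki67 and the most macrophage markers, thus had the largest falls. The falls did not follow Mki67 across all 3 cultures, because culture 2, with the least Mki67, fell more than culture 1. In culture 3 Ccna2, cyclin A2, went from 31.8 to 10.2 CPM. The macrophage markers summed to 198, 1094 and 2259 CPM in embryonic cultures 1 to 3 with LPS, up in culture 2 and down in the others. With the block 4 of the 13 were called higher with LPS in embryonic stroma and 0 lower, against 9.43% and 3.11% of all tested genes. These 4 (Ptprc, Adgre1, Fcgr1 and Fcer1g) were higher in all 3 cultures. Of the 13 estimates, 8 were positive and 5 negative, the lowest being that of Csf1r at -0.66 (standard error 0.36). Ptprc, the leukocyte antigen CD45, changed by 1.84 (standard error 0.26, adjusted p = 0.00283 with edgeR). The 14 fibroblast and myofibroblast markers summed to 51019, 37228 and 45032 CPM in embryonic cultures 1 to 3 with PBS. With LPS they summed to 50908, 24993 and 50193 CPM, so the 2 libraries of culture 2 differed in these markers too. The part of macrophages or of other cells in the falls was not tested.

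**Figure D3:**
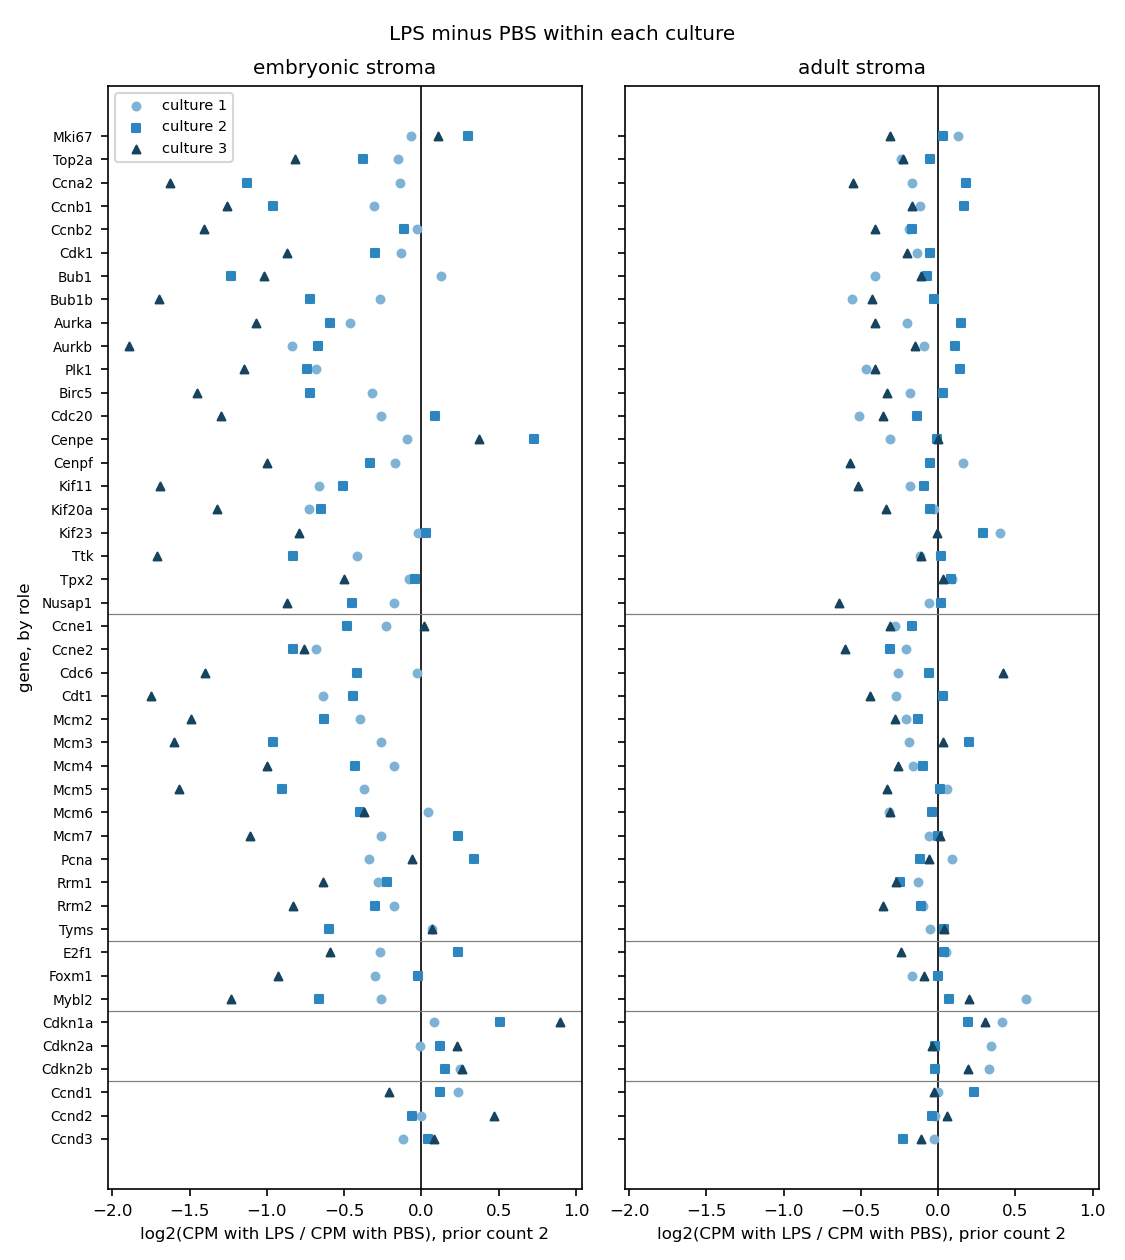
Log2 ratio of CPM with LPS to CPM with PBS in each culture (x axis, prior count of 2) for the 44 genes (y axis, by role), embryonic on the left and adult on the right. Most embryonic mitosis and replication genes lie left of 0 with culture 3 farthest left (median of the 44 genes -0.97), while the adult points lie closer to 0.

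In adult stroma none of the 44 genes was called with LPS, with or without the block. The shares of all tested genes were 0.606% without it and 6.2% with it. Without the block 0 of the 44 had an unadjusted p under 0.05, and DESeq2 also called 0, against 2.25% of all tested genes. With the block, 2 genes had an unadjusted p under 0.05, both lower (Ccne2 and Rrm1), against 7.39% of all tested genes with such a p and a lower level. The median log2 fold change with the block was -0.15 for mitosis genes and -0.18 for replication genes, beside -0.01 for all tested genes. Kif20a stood at 12, 40.2 and 19.5 CPM in adult cultures 1 to 3 with PBS and at 11.8, 38.9 and 15.4 CPM with LPS, a fitted log2 change of -0.14 (standard error 0.14, adjusted p = 0.714). Lower in all 3 adult cultures were 18 of 44 genes, or 40.9%, against 25.1% of all tested genes. When the adult libraries were fitted alone with the block, 2 of 44 genes were called, Rrm1 lower and Cdkn1a higher, against 14.4% of all genes tested in that fit.

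Whether the LPS change differed between the stages was tested as an interaction. None of the 44 genes was called without the block, where 0% of all tested genes were, and none had an unadjusted p under 0.05, against 2.25%. DESeq2 without the block also called 0, against 0.192% of all tested genes. With the block none was called by edgeR, against 0.844% of all tested genes, although 12 had an unadjusted p under 0.05, all more negative in embryonic stroma, against 2.69% of all tested genes with such a p in that direction. The lowest adjusted p was 0.237, for Kif20a, at -0.78 (embryonic minus adult change, standard error 0.2). A fall in embryonic stroma and none called in adult stroma therefore does not show that the stages differed.

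**Figure D4:**
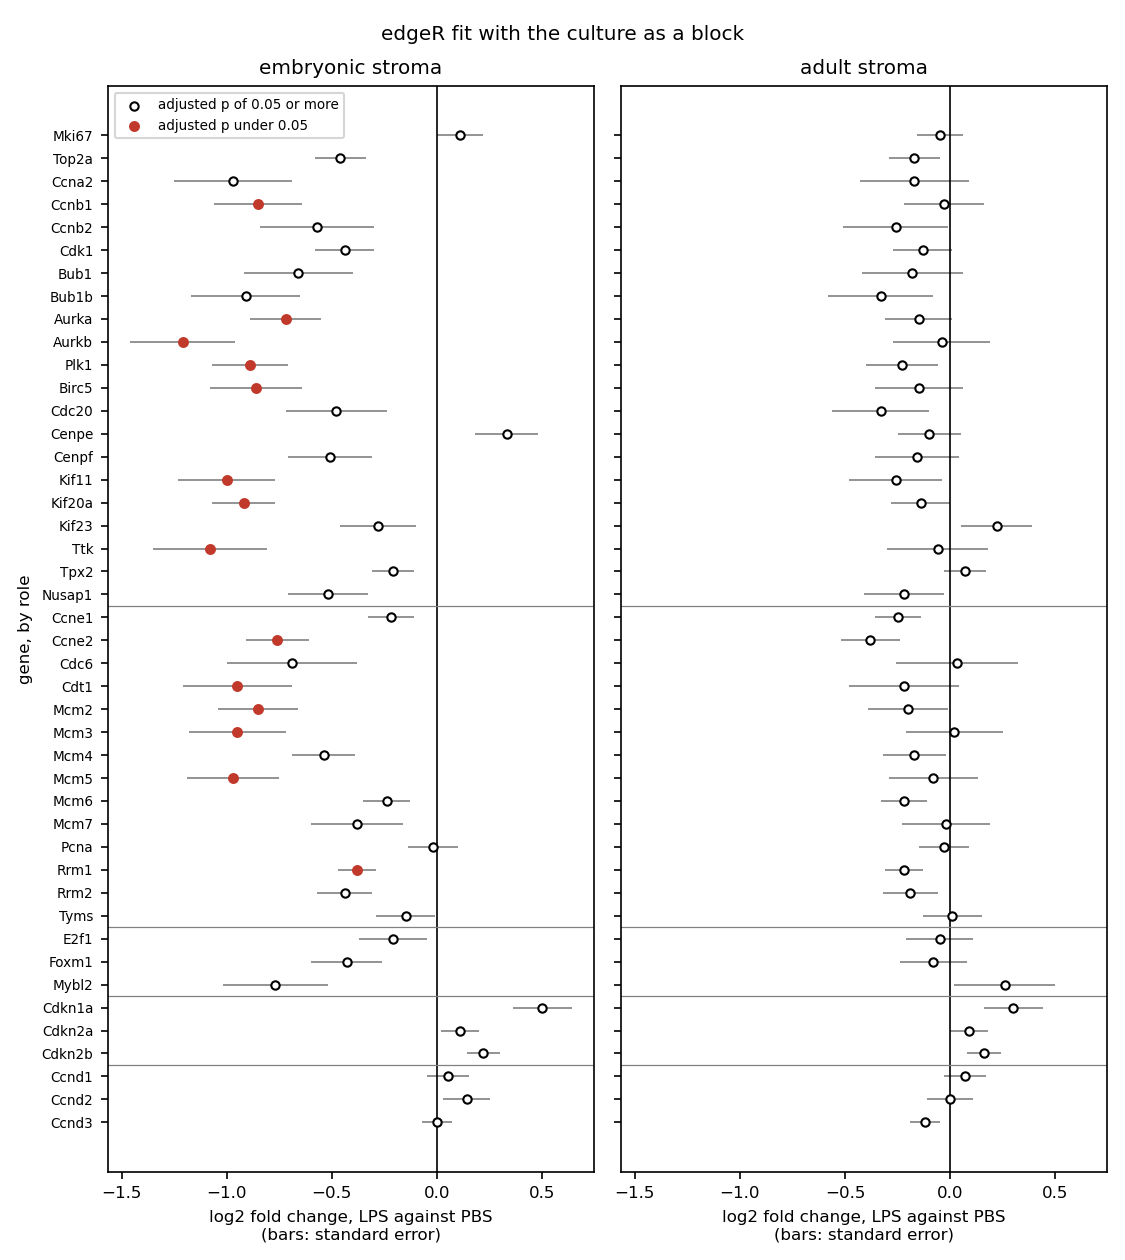
Log2 fold change of LPS against PBS (x axis; bars, standard error) for the 44 genes (y axis, by role) in the fit with the culture as a block, embryonic on the left and adult on the right. Filled red points have an adjusted p under 0.05: 14 genes in embryonic stroma, all lower, and 0 in adult stroma.

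The inhibitors had positive estimates with LPS in both stages, but none was called. Cdkn1a was higher with LPS in all 6 cultures, and its log2 fold change with the block was 0.5 in embryonic (standard error 0.14, adjusted p = 0.0568) and 0.3 in adult stroma (standard error 0.14, adjusted p = 0.317). In fits with the block chosen after seeing the data, Cdkn1a was called higher in embryonic stroma by DESeq2, and by edgeR without culture 1 or without the filter on low counts. With LPS, Cdkn2b stood at 302, 340.5 and 195 CPM in embryonic and 205, 135 and 157 CPM in adult cultures, above PBS in 5 of 6 cultures, with a fitted log2 change of 0.22 in embryonic stroma (standard error 0.08, adjusted p = 0.108). Cdkn2a stood at 97.3, 354 and 91.3 CPM in embryonic and 139, 114 and 110.4 CPM in adult cultures with LPS, and embryonic culture 2 kept its high level. In embryonic cultures with LPS, Ccnd1 stood at 74.5, 100.1 and 164 CPM and Ccnd2 at 1398, 1661 and 1745 CPM. In adult cultures with LPS, Ccnd1 stood at 55.8, 394 and 136 CPM and Ccnd2 at 1280.4, 1039 and 1046 CPM. No D cyclin was called in any LPS comparison, and estimates lay between -0.12 and 0.14 with the block.

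Genes of the pathway outside the 44 were counted in lists written from general knowledge. Beside them stand the shares of all tested genes called with the block, which were 3.11% lower and 9.43% higher in embryonic stroma and 1.51% lower and 4.69% higher in adult stroma. With the block in embryonic stroma, 6 of 33 further replication genes fell and 0 rose, led by Chaf1a, a chromatin assembly factor, at -0.71 (standard error 0.14, adjusted p = 0.014). Of 42 further spindle, kinetochore and cytokinesis genes 12 fell and 2 rose; the lowest p was that of a riser, Pttg1 (securin), at 0.92 (standard error 0.16, adjusted p = 0.00835). Among 7 further inhibitors and pocket proteins 1 fell, Cdkn2c (p18), at -1.05 (standard error 0.23, adjusted p = 0.0222). Of 13 further E2F and MuvB genes 2 fell, led by the repressor E2f6 at -0.51 (standard error 0.09, adjusted p = 0.0101). Without the block none of these 4 lists held a called gene in embryonic stroma. In adult stroma with the block, 0 of 33, 1 of 42 (Anln, lower), 0 of 7 and 1 of 13 (E2f6, lower) of the same lists were called.

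Of the 3 G1 kinases, Cdk6 rose with LPS in both stages without any block, by 0.78 in embryonic (standard error 0.17, adjusted p = 0.0341) and 0.95 in adult stroma (standard error 0.17, adjusted p = 0.037). With the block Cdk6 rose in both stages, and Cdk2, the partner of the E cyclins, fell in embryonic stroma, with a log2 change of -0.49 (standard error 0.11, adjusted p = 0.0257). Cdk6 was also higher in embryonic than in adult stroma with PBS, at 39.6 ± 6.62 against 22.1 ± 4.33 CPM (SD, n = 3), a log2 difference of 0.84 (standard error 0.17, adjusted p = 0.0245 with edgeR). Trp53, which encodes p53, rose in embryonic stroma by 0.69 (standard error 0.14, adjusted p = 0.0273) and was the 1 gene called of 16 in the list of p53 and its targets. With the block, 5 of the 16 rose in embryonic and 4 in adult stroma, against 9.43% and 4.69% of all tested genes. The 5 were Trp53, Mdm2, Gadd45a, Btg2 and Plk2, and the 4 were the same without Mdm2; these were named after their values were seen.

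Between the stages, the inhibitor Cdkn1c (p57) was the pathway gene with the largest difference. It stood at 541, 189 and 148 CPM in embryonic and at 3.7, 3.28 and 3.75 CPM in adult cultures 1 to 3 with PBS, with no overlap, and the log2 difference was 6.35 (standard error 0.74, adjusted p = 0.0022). With LPS it was 6.18 (standard error 0.74, adjusted p = 0.00338). Anln, the cytokinesis protein anillin, was lower in embryonic stroma, by -0.82 with PBS (standard error 0.19, adjusted p = 0.0392) and -0.87 with LPS (standard error 0.19, adjusted p = 0.0291). The comparisons of stage with PBS, of LPS with PBS, and of stage with LPS share libraries, so their values are not independent of each other.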

How the data were processed

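PolyA RNA of 12 libraries (4 groups of 3) was measured by stranded, single-end sequencing. The authors removed adaptors and low-quality reads, mapped the rest with STAR to mm10, kept uniquely mapped reads and counted them per gene; the gene annotation they counted with is not given in the sources used here. The deposited values are raw counts per gene, without normalization, and the column whose strand held nearly all gene counts was used. Reads not assigned to 1 gene (17.4% to 19.9% per library) were left out. Because only unique reads were counted, Ccnb1, Ccnb2, Pcna, Tyms and Ccnd3, which have named pseudogenes, may be undercounted.

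From the counts, CPM and tests were computed in R 4.3.3 with edgeR 4.0.16 (TMM factors, quasi-likelihood test, all 12 libraries in 1 fit), keeping genes that exceeded a CPM of 0.5 in every library of any group, and p-values were adjusted by Benjamini-Hochberg over the 13038 genes kept. Log2 ratios within a culture used a prior count of 2. A count of 3, or 0.0897 to 0.145 CPM, is the limit that 0 counts allow; it covers counting error only. DESeq2 1.42.0, other scalings, filters and left-out libraries were alternatives. The tests were also run on simulated data. There the LPS and PBS libraries of the same stage and number shared a mean, so the pairing itself was not checked. Levels between genes were compared per kilobase of exon (GENCODE M21, GRCm38). Figures were drawn in Python with matplotlib.

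The labels number the libraries 1 to 3 in each group. No source states whether an LPS and a PBS library with the same number share a culture, but their deviations from the group means correlated at 0.71 to 0.784 in embryonic and 0.61 to 0.85 in adult stroma, so the number within a stage was taken to mark the culture and used as a block in the LPS comparisons and the interaction. Across stages the numbers correlated at -0.306 to -0.0022 and pair nothing.

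The 44 genes and all lists were chosen with earlier results of these data known. The naming rule was to give all 44 by role, library values for the markers, inhibitors and D cyclins, and, of each further list, counts and the gene with the lowest p. Other members given with library values, and Cdk2, Cdkn1b and Cdkn2d, were chosen after their values were seen.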

Additional observations from a re-analysis of the deposited data

Results flagged for a closer look

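Among the 44 genes, Mybl2 and Tpx2 were lower with LPS in every embryonic culture and higher in every adult culture. Of all tested genes, 19.1% were lower in all 3 embryonic cultures and 24% were higher in all 3 adult cultures. The share of all tested genes with both was not computed, so these 2 genes are not shown to exceed it. Mybl2, a transcription factor of the mitotic programme, changed by -0.26, -0.66 and -1.23 on the log2 scale in embryonic cultures 1 to 3 and by 0.57, 0.07 and 0.2 in adult ones, a difference of means of -0.997 (embryonic minus adult). Its interaction was -1.01 (standard error 1.33, adjusted p = 1 with edgeR) without the culture block and -1.02 (standard error 0.35, adjusted p = 0.414) with it. Tpx2 changed by -0.08, -0.04 and -0.5 in embryonic and by 0.09, 0.08 and 0.03 in adult cultures, a difference of means of -0.273, with an interaction of -0.28 (standard error 0.14, adjusted p = 0.652 with edgeR) with the block. Neither passed the test, and Mybl2 was below 6 CPM in every library.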

How the results depend on the processing

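Without the culture block, 0 of 44 genes were called in each of the 5 comparisons. None of the 12 fits with a library left out called a gene for LPS in either stage, for stage with PBS or for the interaction. For stage with LPS these fits called 0 to 1 of the 44 genes. Ccne1 was called without embryonic LPS 2, against 5.61% of all genes tested, and Ccnd3 without adult LPS 1, against 1.41%. With the replicate block within stages 14 genes were called for LPS in embryonic stroma, against 12.5% of all tested genes in either direction. With the replicate number as a block across both stages, 1 gene was called for stage with PBS (Ccnd3), against 6.83% of all tested genes. In that fit 2 were called for stage with LPS (Ccnd3 and Tpx2), against 8.12%, and 0 for LPS in either stage. DESeq2 called 2 for stage with LPS (Ccnd2 and Ccnd3), against 13.1% of all tested genes. The likelihood ratio test, other size factors, other filters, counts from either strand, stricter call rules and fits of the 6 libraries compared called 0 in every comparison they were run for without a block.

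Fits with the block that were chosen after seeing the data gave other counts for LPS in embryonic stroma. Beside each, except for DESeq2, stands the share of all genes tested that were called in either direction. The counts were 18 without culture 1 (10.5%), 11 without culture 2 (15%) and 4 without culture 3 (7.98%). They were 16 with DESeq2 size factors (12.5%), 20 with upper quartile factors (16.4%) and 20 without a filter (9.74%). Counts from either strand gave 12 (12.4%), and DESeq2 gave 21. Without the block DESeq2 called 5.25% of all tested genes, against 2.75% by edgeR, so its 21 cannot be set beside the other counts. At an adjusted p under 0.01 there was 1 (5.79%), and with the embryonic libraries alone there was 1 (5.63%). There were 0 where a log2 fold change of at least 2 was also required (3.41%), a size that none of the falls called with the block reached. In adult stroma the block called 0 (6.2%), and 2 with the adult libraries alone (14.4%). The cause of these differences was not tested. Upper quartile scaling moved the median of all genes by -0.14 for LPS in embryonic stroma and that of the 44 genes from -0.56 to -0.7. No called gene changed direction. The culture sums called 0 genes between the stages. Between-culture variation (biological coefficient 0.34, against 0.126 with the block) limits the stage comparisons, which cannot be blocked.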
